A study of Mus musculus with 4 samples.

Results

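Ribosome biogenesis factors are the nucleolar proteins that transcribe, modify, cut and fold ribosomal RNA and put ribosomal proteins onto it. A list of 41 such genes was looked up by gene symbol in a ribosome profiling table of mouse testis cells, and all 41 were among its 22396 named genes. By textbook role they fall into 5 classes: 3 proteins of the box C/D snoRNP, 4 of the box H/ACA snoRNP, 14 factors of the small (40S) subunit, 15 of the large (60S) subunit, and 5 that act in rDNA transcription or as abundant nucleolar scaffold proteins. The cells carried the surface marker THY1 and came from Ddx20 knockout mice (2 samples) and from littermate controls (2 samples). About 1000 cells per sample were digested with RNase I, ribosomes were pelleted, and protected fragments of 26 to 34 nucleotides were sequenced. The labels do not give the age of the animals, the Cre driver or the alleles, and do not say that samples of a genotype came from separate animals, so p-values measure the spread between these samples, which may be technical.

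The nucleolus makes ribosomes in steps. RNA polymerase I transcribes a long precursor, small nucleolar RNPs guide its chemical modification (box C/D for ribose methylation, box H/ACA for pseudouridine), and the small-subunit processome and a series of pre-60S particles then cut and fold it into the 40S and 60S subunits. Growing and dividing cells make much of this machinery, and the transcription factor MYC is a known activator of many of its genes. DDX20 (Gemin3) is an RNA helicase of the SMN complex, which assembles spliceosomal snRNPs and is no member of this list.

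The deposited table holds the authors' comparison of each gene and a mean over all samples, with no column per sample. From these means the whole reads of 4 libraries could be worked back: 282722 reads in library C, 221439 in library D, 941014 in library A and 789570 in library B. Libraries C and D form the side that the authors' fold changes put on top, and libraries A and B the side they divide by. Neither the labels nor the table state which side holds the knockout samples, and no genotype is assigned to a library. "Fell" means lower in C and D, whichever genotype they hold. Read as knockout against control, the directions are not known. Ddx20 itself had 32 and 30 reads in C and D against 287 and 244 in A and B (113 and 135 CPM, the read count scaled to the library total, against 305 and 309 CPM), and was at -1.83 in the authors' deposited table (SE 0.24, adjusted p = 4.07e-13). A chi-square test of their reads over 10424 genes found that A and B differed by less than the sampling noise (0.982 per degree of freedom, p = 0.905), and an alternative counted them as 1 sample. For C and D it found a difference beyond that noise (1.08 over 12228 genes, chi-square p = 3.79e-10). Over the member genes it gave 1.05 for A and B (41 genes, chi-square p = 0.380) and 1.25 for C and D (40 genes, chi-square p = 0.135).

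All 41 ribosome biogenesis factors fell. In the authors' deposited table each passed an adjusted p of 0.05, 41 fell and 0 rose, and log2 fold changes ran from -3.17 (Wdr75) to -0.85 (Bop1) with a median of -1.70. The background is high and depends on level. The authors' deposited table tested 17347 genes, of which 18.8% were called lower and 26.9% higher, and the median over all was 0.38. The members are abundant: 36 of them lie in the top quartile of tested genes by mean and 5 in the next quartile. Of the 6038 tested genes whose mean was at least that of the lowest member, 50.4% were called lower and 15.0% higher in the authors' deposited table (median -0.79). For the top quartile alone the authors' deposited table gives 61.2% lower and 11.7% higher (median -1.05). No test of the list against other genes was made, since its members were chosen with results of these data known. In bulk samples fewer cells of a type and fewer fragments per cell cannot be told apart, and without matched RNA-seq in the files used here neither can transcript level and translation.

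**Figure D1:**
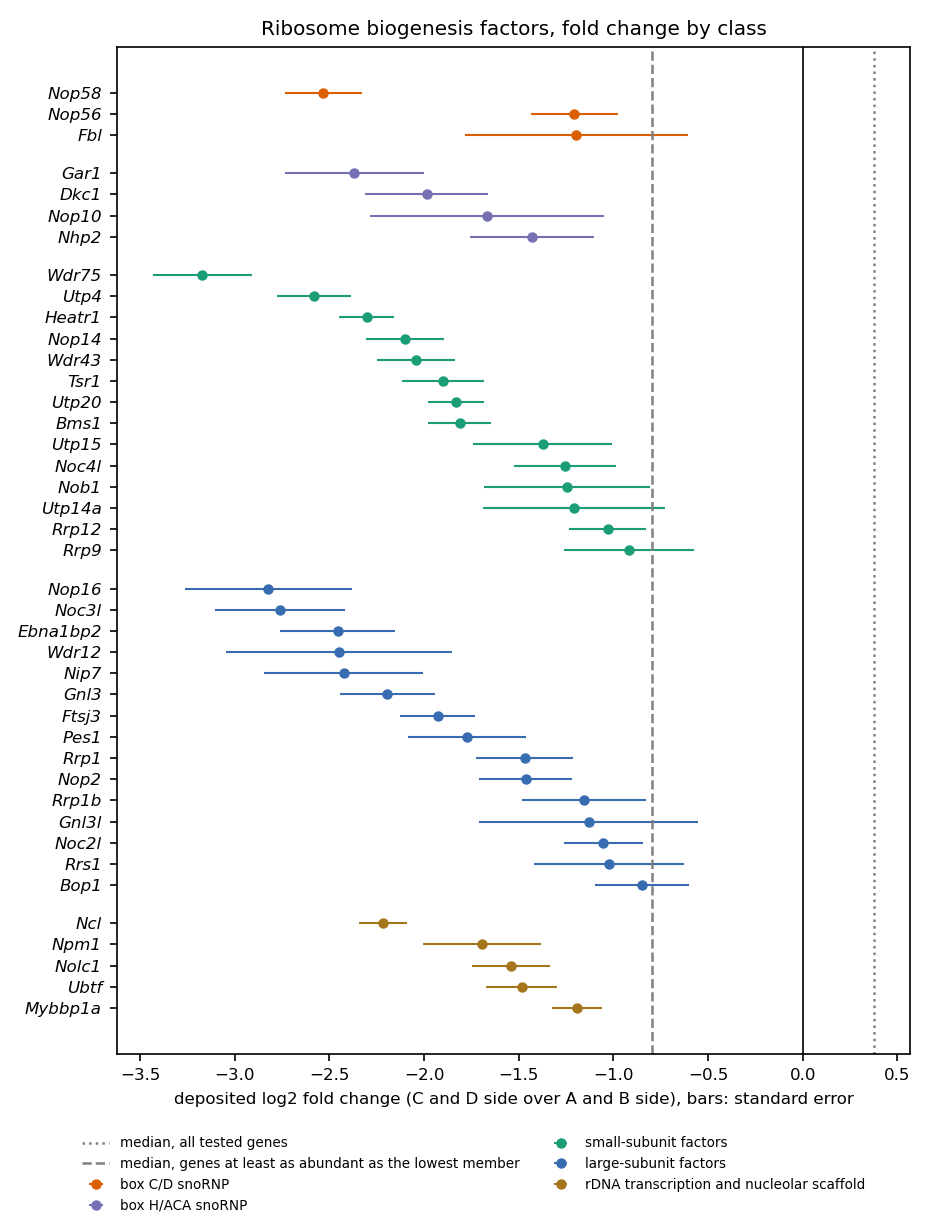
Deposited log2 fold change of the 41 ribosome biogenesis factors (x axis, points) with the authors' standard error (bars), by class down the page, as libraries C and D over A and B. Every point lies below 0; the dotted line is the median of all tested genes (0.38) and the dashed line that of genes at least as abundant as the lowest member (-0.79).

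The fall can also be read as a share of the library total, which depends on what else fills the library. Reads lay on 19374 and 19157 genes in C and D against 14405 and 14048 in A and B. The part of this difference in the fall was not tested. The 41 genes together made up 0.646% of reads in C and 0.618% in D, with 95% Wilson intervals of 0.617 to 0.676 and 0.586 to 0.652. In A and B they made up 1.58% (1.55 to 1.60) and 1.63% (1.60 to 1.65). Such intervals, here and below, account for counting error alone. The mean share was 0.395 times as large in C and D as in A and B. The sides did not overlap, and with 2 libraries on each an exact permutation test cannot go below the p it gave here (two-sided p = 0.333). Taken gene by gene, CPM in both C and D lay below both A and B for 40 of 41 members, against 22.3% of tested genes and 51.4% of those at least as abundant as the lowest member. The exception was Fbl, where library D (45.2 CPM) lay between A and B. With the authors' size factors all 41 were lower without overlap, as were 30.8% of tested genes and 66.6% of those at least as abundant as the lowest member.

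**Figure D2:**
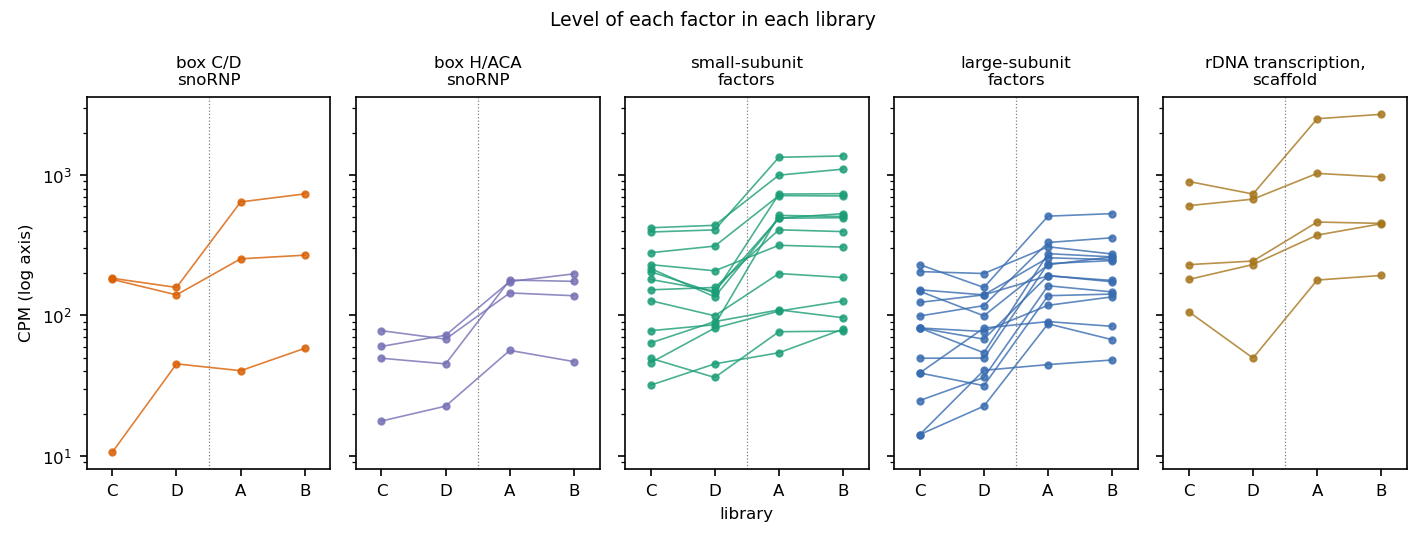
CPM of each member (y axis, log scale) in libraries C, D, A and B (x axis), with 1 panel per class and a line joining the values of 1 gene. Of the 41 genes, 40 are lower in both C and D than in both A and B; Fbl is the exception.

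Box C/D snoRNPs guide ribose methylation of rRNA through the methyltransferase fibrillarin (Fbl) and the scaffold proteins NOP56 and NOP58. Nop58 (RefSeq span chr1:59684961-59711510, GRCm38) had 52 and 35 reads in C and D against 605 and 579 in A and B, or 184 and 158 CPM against 643 and 733 CPM. In the authors' deposited table it fell by 2.53 on the log2 scale (SE 0.20, adjusted p = 1.84e-34). Its partner Nop56 (chr2:130274367-130279313) had 51 and 31 reads in C and D against 238 and 212 in A and B (180 and 140 CPM against 253 and 269 CPM). It fell by 1.21 in the authors' deposited table (SE 0.23, adjusted p = 9.65e-07). The Nop56 span overlaps that of Idh3b, so its count is uncertain, while the Nop58 span overlaps no other protein-coding gene. The part of this overlap in the values of the pair was not tested. Reads on the 2 scaffold genes fell by unequal amounts, with intervals that lay apart: Nop58 held 50.5% of the reads on the pair in C (Wilson interval 40.99 to 59.9) and 53.0% in D (41.2 to 64.6), against 71.8% in A (68.6 to 74.7) and 73.2% in B (70.0 to 76.2). Fbl had few reads, 3 and 10 in C and D against 38 and 46 in A and B, and stood near the threshold in the authors' deposited table (-1.20, SE 0.59, adjusted p = 0.0393). Without library C, limma no longer called it (-0.58, adjusted p = 0.321).

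Box H/ACA snoRNPs guide pseudouridylation through the synthase dyskerin (Dkc1) with NHP2, NOP10 and GAR1. Gar1 (chr3:129824912-129831407) had 14 and 10 reads in C and D against 168 and 138 in A and B, and fell by 2.37 in the authors' deposited table (SE 0.36, adjusted p = 4.25e-10). Dkc1 (chrX:75095854-75109776) had 17 and 16 reads in C and D against 164 and 156 in A and B, and fell by 1.99 in the authors' deposited table (SE 0.33, adjusted p = 5.34e-09). Nhp2 had 22 and 15 reads in C and D against 136 and 109 in A and B, with -1.43 in the authors' deposited table (SE 0.33, adjusted p = 4.23e-05). All 4 were lower in both C and D without overlap. Nop10, the shortest gene span of the 41, had 5 and 5 reads in C and D against 53 and 37 in A and B, with -1.67 in the authors' deposited table (SE 0.62, adjusted p = 0.00699).

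The snoRNP classes could not be ordered. In the authors' deposited table the 3 box C/D genes had a median of -1.21 and the 4 box H/ACA genes one of -1.83. With limma on the recovered reads the box C/D median minus the box H/ACA median was 0.26, against 0.62 from the deposited values (an alternative chosen after seeing the data) and -0.37 without library D. Summed reads gave 1.83 and 1.65 box C/D reads per box H/ACA read in C and D against 1.69 and 1.90 in A and B, with overlap between the sides (exact permutation, two-sided p = 0.667).

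Small-subunit factors form the processome that folds around the new transcript and the later particles that carry the 18S precursor to the cytoplasm. All 14 fell, from -3.17 to -0.92 (median -1.82) in the authors' deposited table. Among the subunits of the UtpA (t-UTP) complex, which binds the precursor first, Wdr75 (chr1:45795153-45823638) had 22 and 19 reads in C and D against 485 and 400 in A and B (77.8 and 85.8 CPM against 515 and 507 CPM). Its log2 fold change, -3.17 in the authors' deposited table (SE 0.26, adjusted p = 7.34e-32), was the lowest of the 41. Heatr1 (chr13:12395375-12438893), the scaffold of the same complex, had 111 and 90 reads in C and D against 1258 and 1079 in A and B. It fell by 2.30 in the authors' deposited table (SE 0.15, adjusted p = 1.07e-54). Utp4 (chr8:106893640-106923094) had 58 and 32 reads in C and D against 688 and 581 in A and B, and fell by 2.58 in the authors' deposited table (SE 0.20, adjusted p = 6.11e-38). The other UtpA members on the list, Wdr43 and Utp15, were at -2.04 and -1.37 in the authors' deposited table.

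Beyond UtpA, the large helical protein gene Utp20 (chr10:88746607-88826814) had 119 and 97 reads in C and D against 939 and 869 in A and B, and fell by 1.83 in the authors' deposited table (SE 0.15, adjusted p = 3.60e-33). The GTPase gene Bms1 and its relative Tsr1, which acts on the cytoplasmic pre-40S particle, were at -1.81 and -1.90 in the authors' deposited table and kept close to 1 ratio: Bms1 held 64.8% and 66.3% of the pair's reads in C and D against 63.7% and 64.2% in A and B. Nop14 was at -2.10 in the authors' deposited table. Members nearer to 0 in the authors' deposited table were Noc4l (-1.26), the endonuclease gene Nob1, which makes the last cut of the 18S precursor (-1.25), Utp14a (-1.21), the export factor gene Rrp12 (-1.03) and Rrp9 (-0.92), whose protein belongs to the U3 snoRNP. Rrp9 (chr9:106477309-106485415) had 18 and 20 reads in C and D against 103 and 76 in A and B (63.7 and 90.3 CPM against 109 and 96.3 CPM). Its adjusted p was 0.0141 in the authors' deposited table (SE 0.35), and limma no longer called it with library totals (-0.44, adjusted p = 0.134) or upper-quartile factors (-0.54, adjusted p = 0.0678).

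Large-subunit factors build the pre-60S particle. All 15 fell, from -2.82 to -0.85 (median -1.77) in the authors' deposited table. Nop16 (chr13:54584191-54590097) had 7 and 8 reads in C and D against 153 and 116 in A and B, with the lowest fold change of the class in the authors' deposited table (-2.82, SE 0.44, adjusted p = 6.79e-10). Ebna1bp2 (chr4:118620799-118627776), the counterpart of yeast Ebp2, had 23 and 12 reads in C and D against 259 and 206 in A and B, and fell by 2.46 in the authors' deposited table (SE 0.30, adjusted p = 3.56e-15). Gnl3 (chr14:31012433-31019131), which encodes the nucleolar GTPase nucleostemin, had 28 and 26 reads in C and D against 311 and 282 in A and B, and fell by 2.19 in the authors' deposited table (SE 0.25, adjusted p = 2.92e-17). Ftsj3 (chr11:106249138-106256084), an rRNA methyltransferase gene related to yeast Spb1, had 65 and 35 reads in C and D against 479 and 419 in A and B, and fell by 1.93 in the authors' deposited table (SE 0.20, adjusted p = 5.14e-21). At the other end of the class, Bop1 (chr15:76452988-76477249) had 43 and 31 reads in C and D against 180 and 140 in A and B (152 and 140 CPM against 191 and 177 CPM). Its value was -0.85 in the authors' deposited table (SE 0.25, adjusted p = 0.00197), and limma no longer called it with library totals (-0.32, adjusted p = 0.145) or upper-quartile factors (-0.41, adjusted p = 0.0584).

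BOP1 works in the PeBoW complex with PES1 and WDR12, and the 3 genes spanned much of the range of the class. Pes1 was at -1.77 and Wdr12 at -2.45 in the authors' deposited table, against -0.85 for Bop1. Pes1 held 34.8% of the reads on Pes1 and Bop1 in C (Wilson interval 24.5 to 46.9) and 32.6% in D (20.9 to 47.0), against 50.1% in A (45.0 to 55.3) and 49.5% in B (43.6 to 55.3). Wdr12 had only 4 and 5 reads in C and D against 82 and 53 in A and B. A larger gap separated the NOC proteins, which escort pre-60S particles out of the nucleolus: Noc3l (14 and 11 reads in C and D, 220 and 194 in A and B) was at -2.76 in the authors' deposited table, and Noc2l (58 and 44 reads in C and D, 290 and 216 in A and B) at -1.05. Noc3l held 19.4% and 20.0% of that pair's reads in C and D (intervals 11.95 to 30.03 and 11.6 to 32.4) against 43.1% and 47.3% in A and B (38.9 to 47.5 and 42.5 to 52.2). The share of a pair does not depend on scaling, but it does depend on gene length, so only its change between libraries is compared. The spans of Bop1, Wdr12 and Noc2l overlap other protein-coding genes, so their counts are uncertain, while those of Pes1 and Noc3l overlap none. The part of such overlap in the unequal falls was not tested.

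Of 11 such pairs of partners or relatives, chosen with the values known, none had values that overlapped between the sides. The share of other gene pairs without overlap was not computed, so this count is description only. Some gaps were small: Rrp1 held 64.6% and 56.4% of its reads with Rrp1b in C and D against 66.1% and 65.8% in A and B. Only Nop58 with Nop56 and Noc3l with Noc2l had intervals that lay apart. The paralogues Rrp1 and Rrp1b were at -1.47 and -1.16 in the authors' deposited table, and Gnl3 stood beside its relative Gnl3l at -1.13, the member closest to the threshold (adjusted p = 0.0483 in the authors' deposited table; 4 and 9 reads in C and D, 42 and 38 in A and B). The remaining large-subunit factors in the authors' deposited table were Nip7 (-2.42), the 28S rRNA methyltransferase gene Nop2 (-1.46) and Rrs1 (-1.02), whose yeast counterpart helps to bring in the 5S RNP.

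**Figure D3:**
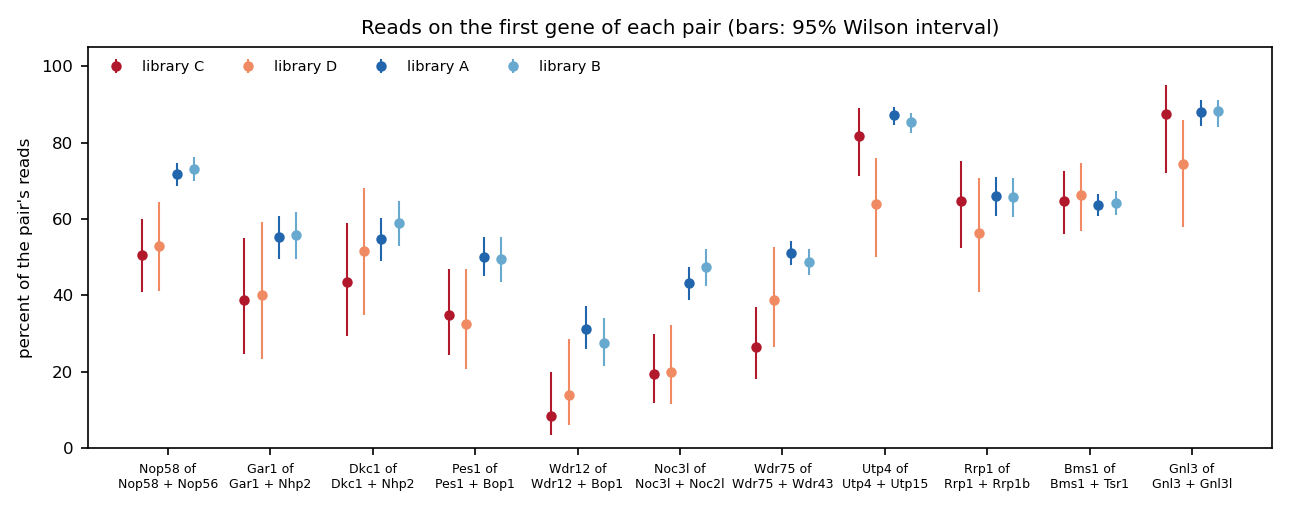
Percent of a pair's reads that fell on its first gene (y axis) in libraries C, D, A and B, for 11 pairs of partners or relatives among the members; bars are 95% Wilson intervals. The intervals of C and D lie apart from those of A and B for Nop58 with Nop56 and for Noc3l with Noc2l, while Bms1 with Tsr1 stays between 63.7% and 66.3%.

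Among the proteins of rDNA transcription and the nucleolar scaffold, nucleolin (Ncl, chr1:86344719-86359455), which binds the precursor RNA, carried more reads than any other member: 254 and 162 in C and D against 2367 and 2136 in A and B. These are 898 and 732 CPM against 2515 and 2705 CPM. It fell by 2.22 in the authors' deposited table (SE 0.13, adjusted p = 1.54e-65), the smallest p of the 41. Mybbp1a (chr11:72441327-72451770), a MYB-binding nucleolar protein gene, had 171 and 149 reads in C and D against 966 and 764 in A and B, and fell by 1.19 in the authors' deposited table (SE 0.13, adjusted p = 1.13e-17). Ubtf (chr11:102304560-102323649), the RNA polymerase I activator, had 65 and 54 reads in C and D against 435 and 357 in A and B, and fell by 1.48 in the authors' deposited table (SE 0.19, adjusted p = 3.12e-14). Npm1 (nucleophosmin) and Nolc1, a chaperone of snoRNPs, were at -1.70 and -1.54 in the authors' deposited table. Npm1 has processed copies in the genome, so its reads may have been split.

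Small-subunit and large-subunit factors had medians close to each other, -1.82 and -1.77 in the authors' deposited table. With limma the small-subunit median minus the large-subunit median was -0.02, against an SD of 0.19 over the 4 pairings of a C or D library with an A or B library, and it was 0.18 without library C. Summed reads, where abundant genes weigh most, gave 1.79 and 1.82 small-subunit reads per large-subunit read in C and D against 2.07 and 2.13 in A and B, without overlap (exact permutation, two-sided p = 0.333, the smallest that 2 against 2 allows). Small-subunit factors made up 38.3% of the member reads in C (Wilson interval 36.1 to 40.6) and 38.6% in D (36.1 to 41.2), against 41.5% in A (40.8 to 42.3) and 41.3% in B (40.5 to 42.2).

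Across all 41 members, fold changes and means were weakly related (Spearman's rho -0.32 over the 41 genes of the authors' deposited table, which share libraries and reads). The deposited fold changes lay nearer to 0 than the plain ratio of size-factor-scaled means for 41 of 41 genes, with a median of -1.82 for the plain ratio. Spearman's rho between the plain ratio and the mean was -0.24 over the same genes. For 20 members library C or D, whichever was lower, held fewer than 20 reads, so single values there are coarse. The RefSeq spans of 11 members overlap another protein-coding gene, among them Nop56, Dkc1, Bop1, Noc2l and Ftsj3. The sources used here do not state whether counting used strand, so the values of these members are uncertain.

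Limma on the recovered reads was used to vary the processing. With the authors' size factors 41 members fell and 0 rose at a Benjamini-Hochberg adjusted p of 0.05, with a median of -1.81, and 28.8% of 14470 genes fell. In each of the 11 limma settings run, all members had a negative log2 fold change. TMM factors left all 41 called (29.4% of all genes fell), as did fitting every gene with a read (20.2%) or only those with at least 50 reads (51.7%), and as did summing A and B into 1 sample (27.3%). Library totals shifted the median of all genes by 0.55 and left 36 members called (18.9% of all genes). Besides Rrp9 and Bop1, limma with library totals no longer called Utp14a (adjusted p = 0.0664), Gnl3l (adjusted p = 0.0559) and Rrs1 (adjusted p = 0.0589). Upper-quartile factors left 39 called (20.6% of all genes), without Rrp9 and Bop1. Leaving out library C left 37 called (24.7% of all genes), without Fbl, Utp14a (-1.02, adjusted p = 0.0648), Gnl3l (-0.68, adjusted p = 0.268) and Rrs1 (-0.63, adjusted p = 0.106).

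**Figure D4:**
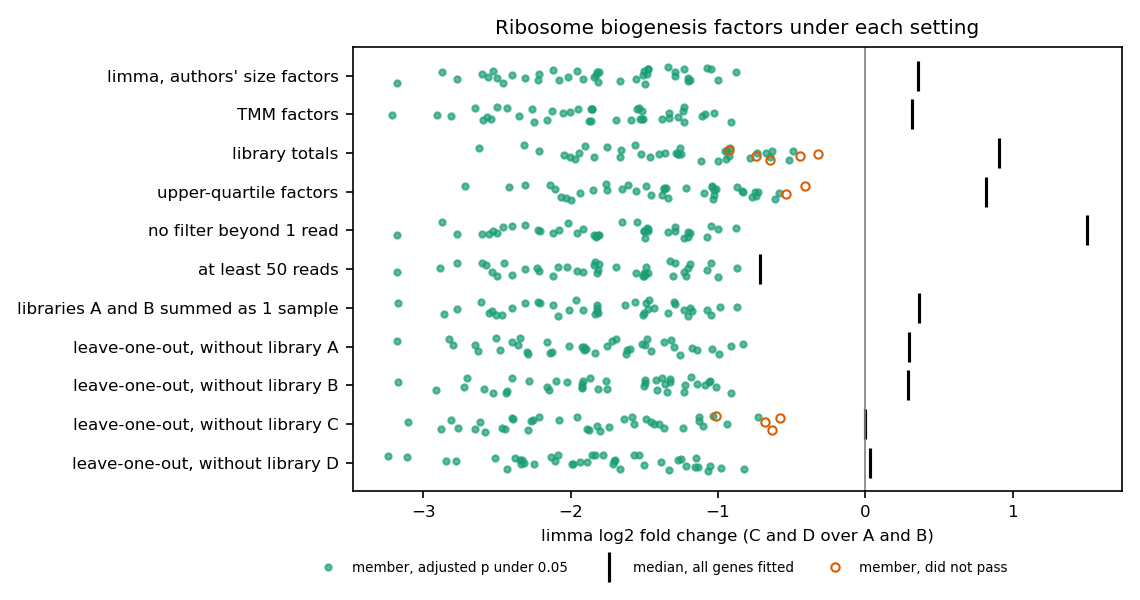
Limma log2 fold change (x axis) of the 41 members under each of 11 settings (rows), with filled points for an adjusted p under 0.05, open points for genes that did not pass, and a black tick for the median of all genes fitted. All points lie below 0 in every row; 5 genes are open with library totals, 2 with upper-quartile factors and 4 without library C.

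Other genes of the pathway were taken from lists of textbook factors. The authors' deposited table tested 112 genes of 4 such lists, and 85 fell while 0 rose (median -1.55). It called 18.8% of all tested genes lower, and 50.4% of those at least as abundant as the lowest of the 41 members. By list in the authors' deposited table, 35 of 42 other small-subunit factors fell, as did 35 of 46 other large-subunit factors, 9 of 13 genes of the RNA polymerase I machinery and 6 of 11 snoRNP assembly factors. The smallest p in the authors' deposited table belonged to Esf1 (-2.94), Dcaf13 (-2.99) and Wdr36 (-1.99) for the small subunit. For the large subunit it belonged to the GTPase gene Gtpbp4 (-3.04), Tex10 (-2.75) and Rsl1d1 (-2.44) in the authors' deposited table. For RNA polymerase I these were the subunit genes Polr1b (-2.25) and Polr1c (-1.64) and the initiation factor gene Rrn3 (-1.71), and for snoRNP assembly Znhit6 (-3.09), Nufip1 (-2.73) and Shq1 (-2.02), in the authors' deposited table. Of the 27 that did not pass, the authors' deposited table has, for example, Tcof1 (-0.44, adjusted p = 0.0972), the Treacher Collins syndrome gene, Ruvbl2 (-0.49, adjusted p = 0.113), Dhx37 (0.07, adjusted p = 0.853) and Naf1 (0.48, adjusted p = 0.409). Snu13, on the list of snoRNP assembly factors, did not pass either (-0.12, adjusted p = 0.796 in the authors' deposited table). It had 2 and 0 reads in C and D against 6 and 2 in A and B. Together the 4 lists took 1.10% and 1.00% of the reads in C and D against 2.25% and 2.31% in A and B.

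Cytosolic ribosomal proteins, the building blocks that these factors assemble, had a median nearer to 0 in the same libraries, by an amount that depends on the fit. The authors' deposited table tested 67 of 81, of which 18 fell, 1 rose and 48 did not pass (median -0.24). Over all tested genes it called 18.8% lower and 26.9% higher. Limma on the recovered reads fitted 62 of them, of which 20 fell and 5 rose (median -0.63, against -1.81 for the members). Of all 14470 genes in that fit, 4168 (28.8%) fell and 5912 rose. Those that fell included Rpl4 (-1.23), Rps3 (-1.15) and Rps9 (-1.72), and the 1 that rose was Rps2 (1.01, adjusted p = 0.0312), in the authors' deposited table. They took 0.400% of the reads in C (Wilson interval 0.377 to 0.424) and 0.371% in D (0.347 to 0.397), against 0.447% in A (0.434 to 0.461) and 0.458% in B (0.443 to 0.473). There were thus 1.62 and 1.67 member reads per ribosomal protein read in C and D, against 3.52 and 3.55 in A and B (exact permutation, two-sided p = 0.333, the smallest possible here). Many ribosomal protein genes have processed copies, so their counts are uncertain.

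**Figure D5:**
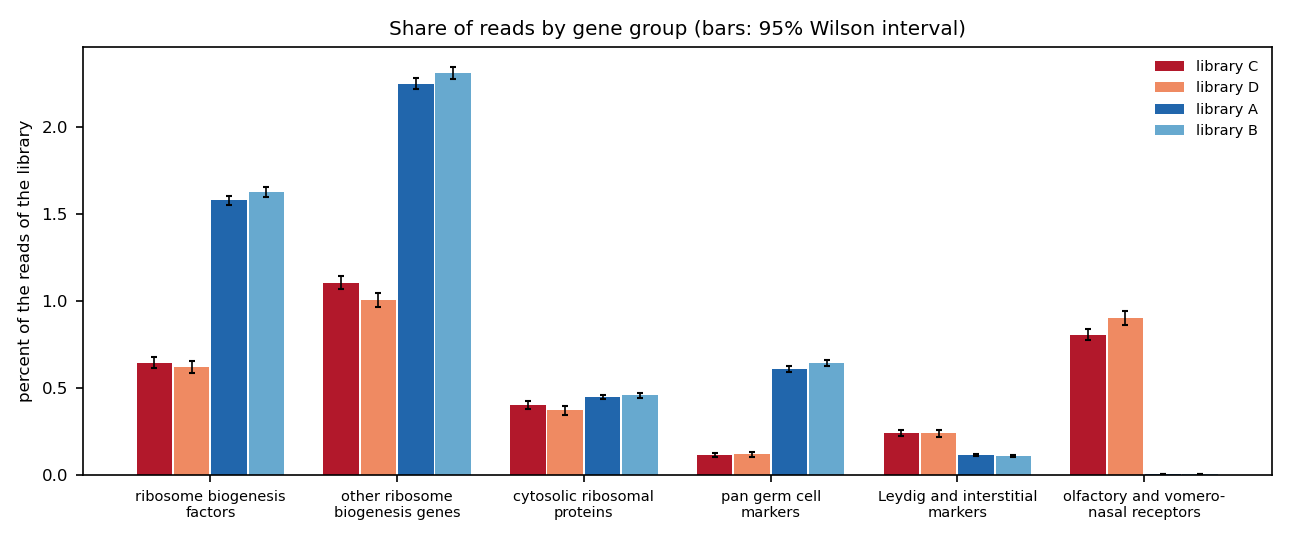
Percent of each library's reads (y axis) on 6 gene groups, for libraries C, D, A and B; bars on the columns are 95% Wilson intervals. The 41 ribosome biogenesis factors took 0.646% and 0.618% in C and D against 1.58% and 1.63% in A and B, while cytosolic ribosomal proteins took 0.400% and 0.371% against 0.447% and 0.458%.

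Other gene groups were read beside the members. Over all tested genes the authors' deposited table called 18.8% lower and 26.9% higher. Limma with the authors' size factors called 4168 of 14470 genes lower and 5912 higher. The marker counts below are small and were not tested against these shares. Of 12 pan germ cell markers, 11 fell in the authors' deposited table, among them Dazl (-3.61), Ddx4 (-2.97) and Usp26 (-4.13), and together they took 0.116% and 0.120% of the reads in C and D against 0.609% and 0.644% in A and B. There were 5.58 and 5.17 member reads per germ cell marker read in C and D against 2.59 and 2.52 in A and B (exact permutation, two-sided p = 0.333, the smallest possible here), without overlap. Of 11 Leydig and interstitial markers the authors' deposited table has 3 that rose (Col1a1, 1.04; Nr2f2, 2.33; Col1a2, 0.71) and 2 that fell (Dcn, -0.63; Pdgfra, -0.67). Limma called 6 higher and 2 lower, and their share was 0.242% and 0.238% in C and D against 0.115% and 0.109% in A and B. Of 12 Sertoli markers Wt1 rose (2.51) and Amh fell (-1.16) in the authors' deposited table, while limma called 3 higher and 3 lower (share 0.0354% and 0.0406% in C and D, 0.0259% and 0.0247% in A and B). Of 8 tested blood and endothelial markers 3 rose in the authors' deposited table, Csf1r (1.70), Tek (2.59) and Adgre1 (1.16), and limma also called 3 higher (share 0.0513% and 0.0542% in C and D, 0.0215% and 0.0199% in A and B), with the haemoglobin genes at 3 reads or fewer per library. Reads on olfactory and vomeronasal receptor genes made up 0.806% and 0.899% of C and D against 0.00457% and 0.00469% of A and B. The part of these markers, of receptor reads and of depth in the fall of the ribosome biogenesis factors was not tested.

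Features that the list was not chosen on were read from RefSeq annotation of GRCm38. The spans of 7 of 41 members (17.1%) hold at least 1 snoRNA gene, against 1.99% of 17091 tested protein-coding genes. The share among genes as abundant as the members was not computed. They are Nop56, Nop58, Dkc1, Wdr43, Tsr1, Gnl3 and Ncl, with 19 annotated snoRNA genes, among them Snord57 and Snord110 in Nop56 and Snora75 and Snord82 in Ncl. Many snoRNAs are cut from introns of such host genes. In the authors' deposited table the 7 had a median of -2.04 and the other 34 members a median of -1.51.

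MYC binds the E-box CACGTG, which reads the same on both strands. A RefSeq promoter window of 300 bases, 250 before and 50 after the start site, was at hand for 35 members, and a gene was counted if any of its windows held the motif. CACGTG was in 7 (20.0%), against 10.3% of 13620 tested genes and 13.4% of those at least as abundant as the lowest member. Among the other lists it was in 9 of 33 small-subunit factors, 8 of 38 large-subunit factors, 1 of 11 genes of the RNA polymerase I machinery, 0 of 8 snoRNP assembly factors and 6 of 60 cytosolic ribosomal proteins. The matches are shown because 6 of 7 lie just after the annotated start, with the E-box in capitals and up to 12 bases on either side (5′ to 3′ on the gene's strand, GRCm38.p6).
Nop2 (chr6:125131811-125131840, + strand): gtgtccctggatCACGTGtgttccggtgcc
Utp4 (chr8:106893643-106893672, + strand): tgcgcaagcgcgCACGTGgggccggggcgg
Utp20 (chr10:88826765-88826789, - strand): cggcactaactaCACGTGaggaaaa
Pes1 (chr11:3963965-3963994, + strand): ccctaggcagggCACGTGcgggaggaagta
Mybbp1a (chr11:72441355-72441376, + strand): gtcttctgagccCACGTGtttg
Tsr1 (chr11:74898092-74898121, + strand): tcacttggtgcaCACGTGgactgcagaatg
Wdr43 (chr17:71616220-71616249, + strand): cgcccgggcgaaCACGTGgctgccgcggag

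The first base of the E-box lies 60 bases before the start in Nop2 (position -60), and at positions 3 (Pes1), 16 (Utp4), 18 (Wdr43), 25 (Tsr1), 38 (Utp20) and 41 (Mybbp1a), counted from 1 at the start site of the promoter window, which for Wdr43 lies 37 bases inside the start of the gene's RefSeq span. In the authors' deposited table the 7 genes with the motif had a median of -1.83 and ranged from -2.58 to -1.19, and the 28 without it had a median of -1.87 and ranged from -3.17 to -0.92. A match describes these letters only, and the share of matches after the start among other genes was not computed.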

How the data were processed

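Mean levels are a signal made by the authors, gene counts divided by size factors and averaged over the libraries, per the file headers. Per the file headers, the authors also deposited a log2 fold change with standard error, a p-value and an adjusted p-value. The direction of the fold change and any shrinkage are not stated. For all 41 members the deposited p lay below the two-sided normal p of the fold change over its SE. The SE printed beside a p is therefore not what gave that p. For the authors' pipeline the submitters' processing notes list edgeR, DESeq2, StringTie 2.1.7, STAR 2.7.5c, Trimmomatic 0.39 and build mm10, without roles, while annotation and counting mode were not given in the sources used here. In the deposited file, 1 row has no gene name (0.00475% of summed means) and was left out.

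A count test needs columns per sample, so the authors' comparison is the main result. A mean sums whole reads times 4 constants, 1 per library. Solving for the reads left a single answer in 20512 of 20515 genes with reads (99.985%, relative tolerance 8e-15), and 0 of 500 means shifted by a relative 1e-09 could be solved. Genes with a lone read gave each library its side, through the sign of their deposited fold change. Limma 3.58.1 (voom, R 4.3.3) was run on genes with at least 10 reads over the libraries, with Benjamini-Hochberg adjustment over all genes fitted. Both steps were tested on simulated data. Precision follows depth, from 221439 to 941014 reads.

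Members and lists were chosen with earlier results of these data known. Reads in every library are given for up to 3 members of a class with the smallest deposited p, for its highest and lowest fold change, and for members that did not pass; of each other list, up to 3 genes per direction that passed are named with their fold changes. Further members were named after their values were seen. Levels per coding length were not run, since no coding lengths were at hand.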

Additional observations from a re-analysis of the deposited data

How the results depend on the processing

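Against the deposited comparison, in which 41 members fell and 0 rose, an adjusted p under 0.01 left 36 (15.2% of all tested genes) and limma on recovered reads called 41. The median log2 fold change of -1.70 became -1.81 with limma and the authors' size factors, for which the cause was not tested. The limma median became -1.26 with library totals and -1.35 with upper-quartile factors. These scalings shift every gene together, by 0.55 and 0.46 at the median of all genes. Leaving out 1 library at a time leaves a single library on 1 side, so calls from such a fit rest on the spread of the other side. These fits gave medians of -1.84 to -1.76. The small-subunit minus large-subunit median (-0.02) ran from -0.13 to 0.18 over these and the box C/D minus box H/ACA median (0.26) from -0.37 to 0.56; the cause was not tested. Per gene, 5 members were no longer called with library totals, 2 with upper-quartile factors and 4 without library C, none changed sign, and the other 8 limma settings called all 41. Of 50 class medians under alternatives, 36 moved by less than the spread between libraries and 14 by more. The 1 ribosomal protein gene that rose did not pass an adjusted p under 0.01, leaving 0, while limma, an alternative chosen after seeing the data, called 5 higher; the cause was not tested. CANNTG, a looser motif by construction, was in 65.7% of the 35 members with a window, against 20.0% for CACGTG. It was in 70.1% of tested genes and 63.9% of those at least as abundant as the lowest member. No paired analysis was possible because the table ties no library to a replicate number. Depth is a limit: the lowest member count in a library was 3 reads, and with A and B counted as 1 sample that side has no spread of its own.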

Other observations

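Among the other ribosome biogenesis genes, Mdn1, the giant AAA ATPase that strips factors from pre-60S particles, stood apart from its list by level and was singled out after its values were seen. It had 583 and 415 reads in libraries C and D against 1432 and 1218 in A and B, which are 2062 and 1874 CPM against 1522 and 1543 CPM. In the authors' deposited table its log2 fold change was -0.19 (SE 0.11, adjusted p = 0.133). Limma gave -0.19 with the authors' size factors (adjusted p = 0.0177) and 0.37 with library totals (adjusted p = 1.01e-05), so its direction follows the scaling.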
